A study of Drosophila melanogaster with 14 samples.

Results

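The proteasome genes of *Drosophila* are covered here, the standard subunits together with the paralogs that several of them have in testes. Members were taken by symbol, as every gene whose symbol starts with Prosalpha, Prosbeta or Rpn, or with Rpt and a digit, and 48 of the 13776 genes in the RNA-seq tables met this rule. Of these 48 genes, 32 were standard subunits and 16 were paralogs, recognised by a T or an R after the subunit number. The 16 paralogs belong to 12 subunits, because Prosalpha4, Prosbeta2, Prosbeta4 and Prosbeta5 each have a pair of them. All 48 members had enough reads to be tested.

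The proteasome degrades proteins that carry a ubiquitin chain. Its core is a barrel in which rings of alpha subunits (Prosalpha) gate the entry and rings of beta subunits (Prosbeta) hold the protease sites, and a regulatory particle on top of the barrel unfolds substrates with ATPases (Rpt) and binds, scaffolds and deubiquitinates them with non-ATPase subunits (Rpn). In the fly male germline, duplicated copies of subunit genes are expressed from the spermatocyte stage onward, and Prosalpha6T is needed for the late steps of sperm formation.

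Poly(A)+ RNA was sequenced from larval testes at the third instar, about 200 per replicate, in 3 biological replicates of control (*bam-Gal4-VP16*) and 3 of Lam-KD males, which combine *UAS-LamDm0-RNAi* over *bam-Gal4-VP16* with 1 copy of *UAS-LamC-RNAi*. Both genotypes thus carry the bam-Gal4-VP16 driver, which acts in the germline from late spermatogonia (SpG) on, and Lam-KD males alone carry the hairpins against *Lam Dm0* and *Lam C*, the genes of the nuclear lamina. As the control has no hairpin, the knockdown and the strain of the hairpins cannot be told apart. Somatic cells, which lie outside the reach of the driver, and some fat body remain in these testes, and in such bulk samples fewer cells of a type and less RNA per cell cannot be told apart.

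The 6 libraries held between 5651960 and 7437111 expected reads, the reads per gene that *Salmon* estimated. *Lam*, the gene of Lam Dm0, had 69.7 to 96.8 TPM (transcript abundance per length, scaled to the same sum in each library) in control and 14.9 to 16.7 TPM in Lam-KD libraries, and *LamC* had 19.2 to 32.1 and 7.08 to 9.36 TPM, so both targets matched their labels. The labelled tissue was checked against its markers. Of these, 15 of 15 spermatocyte (SpC) markers were tested and had a summed level of 3085 to 3323 TPM in control and 3304 to 3360 TPM upon Lam-KD. Control replicate 3 stood apart from the other controls, as the chi-square per degree of freedom of read counts over genes was 12.2 and 11.5 for its pairs with control replicates 1 and 2, 5.08 between these and 2.29 to 3.99 between Lam-KD replicates. Over all 10318 genes tested its median log2 ratio to the mean of control replicates 1 and 2 was -0.23, so results are also given without this library.

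In control testes, proteasome genes were among the well expressed genes and paralogs made a large part of their RNA. The 48 members together reached 11197 ± 767 TPM (SD, n = 3), which is 1.12% of all TPM. Their ranks by mean control TPM ran from 149 for Prosalpha1R to 4750 for Rpt3 among the 13776 genes. Paralogs contributed 36.3% ± 2.86 (SD, n = 3) of the member TPM in control. TPM is a value per transcript length, so levels of different genes may be compared and added.

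In 11 of 16 pairs the paralog had a higher mean TPM in control than the standard subunit of the same number. The highest ratio, 9.25-fold for Prosalpha1R, rests on an uncertain split of reads. Rpn12R was 6.02-fold and Rpt3R 5.99-fold above the standard gene. Rpt4R was 2.80-fold, Prosalpha4T2 2.31-fold and Rpt6R 2.29-fold above it. In the opposite direction, Prosalpha3 exceeded Prosalpha3T 2.85-fold, Rpn13 exceeded Rpn13R 2.36-fold and Prosbeta2 exceeded Prosbeta2R1 2.33-fold. Prosalpha6T and Prosbeta4R1 stood close to their standard genes, with mean TPM ratios of 1.04 and 0.973, and which gene of these pairs was higher differed between control libraries.

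In the core, standard genes with a paralog had lower levels than those without. Among the alpha and beta subunits without a paralog, mean control TPM lay between 376 for Prosalpha5 and 487 for Prosalpha2. Standard genes of the core with a paralog lay lower, from 88.1 TPM for Prosalpha4 to 356 TPM for Prosalpha3. The order was not the same in the regulatory particle, where Rpn13, with a paralog, had 194 TPM and Rpn1, without, had 61.0 TPM. When a standard gene and its paralogs of the core were added, Prosalpha3 reached 481 ± 29.7, Prosalpha4 469 ± 16.0 and Prosalpha6 440 ± 46.8 TPM (SD, n = 3), values within the range of the core subunits without a paralog. The sums for Prosbeta2 and Prosbeta5 were 533 ± 59.2 and 572 ± 20.6 TPM. Higher sums of 937 ± 48.0 and 979 ± 45.2 TPM were found for Prosbeta4 and Prosalpha1. No test was made of these differences between genes.

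**Figure D1:**
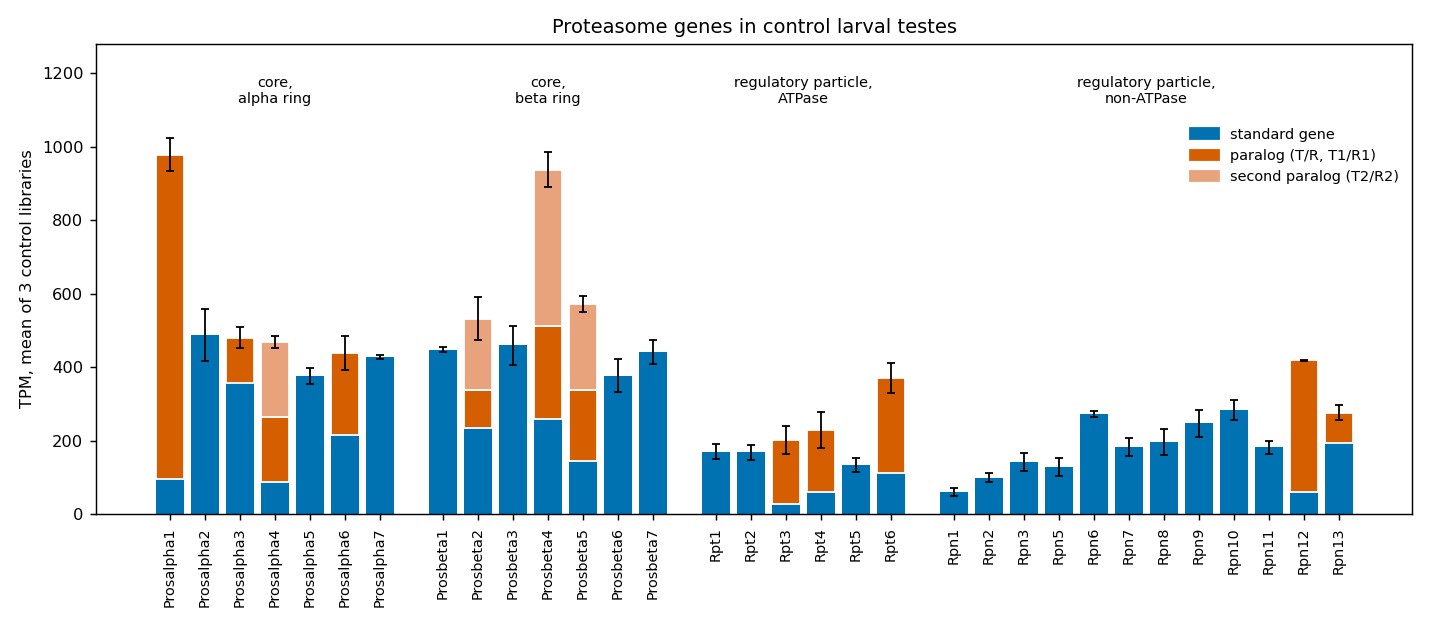
Mean TPM of each proteasome subunit in the 3 control libraries (y axis, TPM), with the standard gene in blue and its paralogs stacked above it in orange. Error bars are the SD of the sum over 3 libraries. Paralogs exceed 50% of the bar in 10 of the 12 subunits that have them.

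Standard genes of the regulatory particle had lower median levels than those of the core. Single genes overlapped, as Rpn10 of the regulatory particle had 284 TPM in control and Prosalpha4 of the core 88.1 TPM. Standard ATPase genes had a median of 123 TPM and standard non-ATPase genes a median of 183 TPM in control, against 356 TPM for alpha and 377 TPM for beta genes. Rpt3, at 28.9 ± 6.44 TPM (SD, n = 3), was the lowest of all 48 members. Each of the 4 X-linked standard subunits, Prosalpha4, Rpt3, Rpt4 and Rpt6, had a paralog on an autosome. Of the 28 autosomal standard subunits, 8 had a paralog. Prosbeta2R1 and Rpn13R were the X-linked paralogs.

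Upon Lam-KD, no proteasome gene passed the threshold for a changed gene, while standard subunits leaned to higher and paralogs to lower values. A gene was called at an adjusted *P* under 0.05 (quasi-likelihood test of edgeR, adjusted over all genes tested by Benjamini-Hochberg) together with a fold change of mean TPM over 1.5. By this rule 0 of 48 members were higher and 0 were lower, against 3.19% and 3.22% of all genes tested, 6.41% in either direction. *DESeq2* under the same rule also gave 0. By adjusted *P* alone, where 5.31% of all genes were higher and 7.34% lower, 1 standard subunit was higher (Rpt4) and 1 paralog was lower (Prosalpha3T), and *DESeq2*, by which 5.0% of all genes were higher and 8.7% lower, added the paralog Prosbeta4R2 on the lower side. By unadjusted *P* under 0.05, where 15.8% of all genes were higher and 18.5% lower, 10 of 32 standard subunits were higher and 0 lower, while 1 of 16 paralogs was higher and 7 were lower.

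The fitted log2 fold change was above 0 in 30 of 32 standard subunits and in 4 of 16 paralogs, against 51.6% of all genes tested. The exceptions among standard subunits were Prosbeta7 (-0.03) and Rpt1 (-0.01), both close to 0. On the scale of log2 ratios of mean TPM the median of all genes tested was 0.10, so that Prosbeta7 (0.05) and Rpt1 (0.07) were above 0 but below this median. Paralogs above 0 were Rpt3R (0.22), Rpt4R (0.21), Prosalpha1R (0.20) and Prosbeta5R2 (0.14), and Rpt6R (-0.04) was at 0.04 by the ratio of mean TPM, also below the median of all genes. Median log2 fold changes were 0.15 for standard subunits, -0.19 for paralogs and 0.01 for all genes tested. The 12 standard subunits that have a paralog had a median of 0.31, and the 20 without had 0.13. The difference between these classes was described and not tested.

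**Figure D2:**
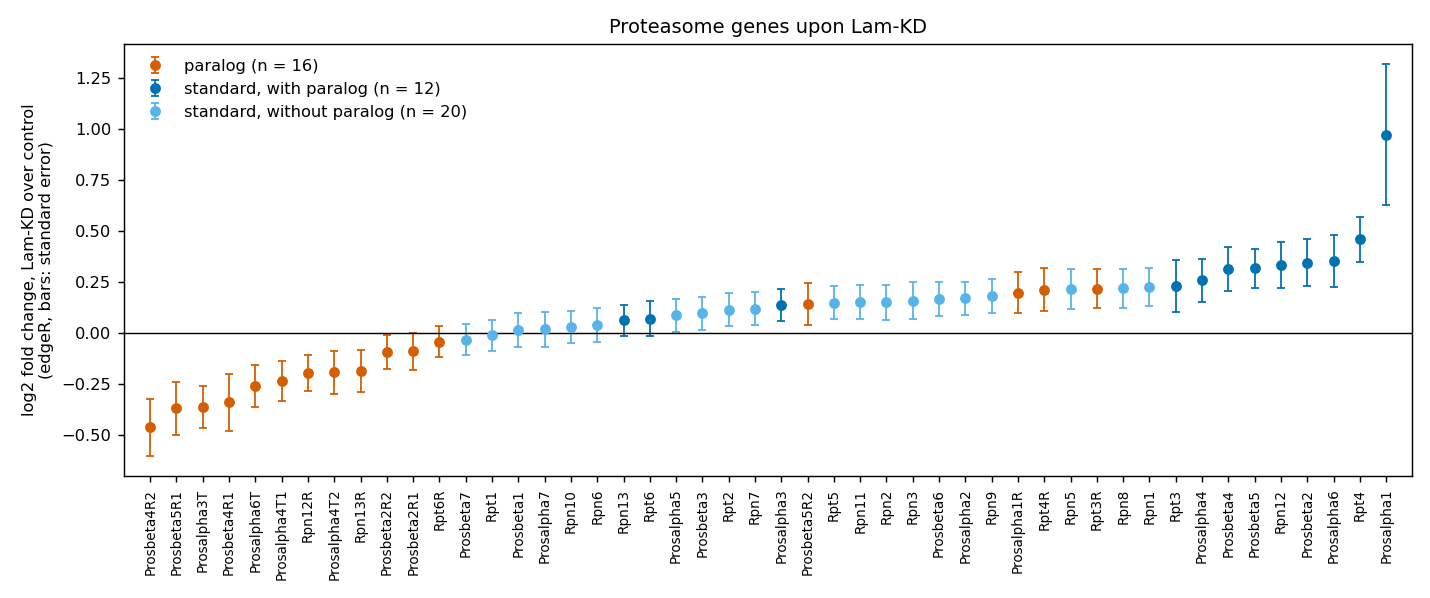
Fitted log2 fold change of the 48 proteasome genes (y axis, Lam-KD over control, edgeR), with bars for the standard error, ordered from lowest to highest. Paralogs (orange) occupy the low end down to -0.47 for Prosbeta4R2, and 8 standard subunits with a paralog (dark blue) the high end from 0.26 for Prosalpha4 to 0.97 for Prosalpha1.

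By ranges of the libraries, TPM of Lam-KD lay wholly above control for 22 of 32 standard subunits and wholly below it for 0, against 21.5% and 15.6% of all genes tested. For paralogs these counts were 3 of 16 above and 4 of 16 below. On TMM-scaled CPM (reads per library size) the counts were 17 and 0 of 32 standard subunits and 2 and 6 of 16 paralogs, against 20.2% and 20.6% of all genes.

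Control replicate 3 differed from the other controls along the same classes. All 32 standard subunits had a lower TPM in control replicate 3 than the mean of control replicates 1 and 2. Their median log2 difference was -0.34, against -0.23 over all genes tested, and the share of all genes below that mean was not counted. The difference was larger for the 12 standard subunits with a paralog (-0.48) than for the 20 without (-0.30). Of the paralogs, 10 were above and 6 below that mean, with a median of 0.05, and the 3 ATPase paralogs were all below. Without control replicate 3, the median log2 fold change upon Lam-KD was 0.20 for standard subunits with a paralog, 0.09 for those without, and -0.08 for paralogs. The signs of the class medians thus stayed, and their sizes were smaller. Under this setting, where by adjusted *P* alone 7.1% of all genes were higher and 8.84% lower, adjusted *P* was below 0.05 for Prosbeta2, Prosbeta4, Prosbeta5 and Rpt4 on the higher side, for the paralog Prosbeta5R2 on the higher side, and for Prosalpha3T and Prosbeta4R2 on the lower side. Without Lam-KD replicate 1 or 3, 0 members had an adjusted *P* below 0.05, and without Lam-KD replicate 2 only Prosalpha1 did. These settings also gave fewer of all genes by adjusted *P* alone. Higher and lower were 1.44% and 2.06% without Lam-KD replicate 1, 1.64% and 2.16% without Lam-KD replicate 2, and 2.16% and 3.02% without Lam-KD replicate 3.

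**Figure D3:**
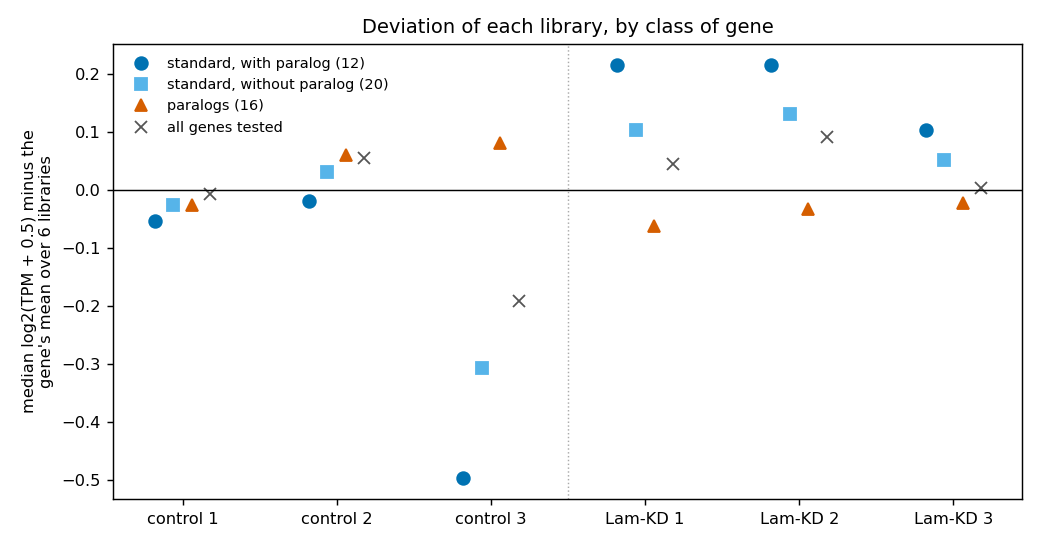
Median deviation of each library from the mean of all 6 libraries (y axis, log2 of TPM + 0.5) for 3 classes of proteasome genes and for all genes tested. Control replicate 3 lies at -0.50 for standard subunits with a paralog and at 0.08 for paralogs, while the Lam-KD libraries lie above 0 for both standard classes and below 0 for paralogs.

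In the alpha ring, Prosalpha3T had the lowest adjusted *P* of the paralogs, and its standard gene differed in the opposite direction. Prosalpha3T (FBgn0261395), a testis copy of an alpha ring subunit, had 122, 122 and 130.3 TPM in control and 98.3, 103 and 108 TPM upon Lam-KD. Prosalpha3 (FBgn0261394) had 338, 393 and 338 TPM in control and 404, 434 and 405 TPM upon Lam-KD. The groups did not overlap for either gene, and they were ordered in opposite directions. The log2 fold change was -0.36 (SE 0.103, adjusted *P* = 0.0429, edgeR) for Prosalpha3T, with a ratio of mean TPM of 0.827, which is short of the 1.5-fold threshold. For Prosalpha3 it was 0.14 (SE 0.0792, adjusted *P* = 0.242). In Prosalpha3T all 3 Lam-KD libraries were lower than all 3 controls, but adjusted *P* was 0.0616 without control replicate 1 and between 0.0830 and 0.179 when 1 Lam-KD replicate was left out, over a range of 0.00837 to 0.179 in all settings.

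No other alpha subunit or paralog had an adjusted *P* below 0.05. The X-linked Prosalpha4 (FBgn0004066) had 95.8, 99.6 and 68.8 TPM in control and 110.3, 124 and 98.3 TPM upon Lam-KD. Its paralogs Prosalpha4T1 (FBgn0265606) and Prosalpha4T2 (FBgn0017556) both had more RNA than Prosalpha4 in every library. Prosalpha4T1 had 169, 186 and 177 TPM in control and 157, 149 and 173 TPM upon Lam-KD. Prosalpha4T2 had 192, 201 and 216 TPM in control and 189, 184 and 193 TPM upon Lam-KD. The groups overlapped in TPM for all 3 genes, and adjusted *P* was 0.118, 0.118 and 0.207 in this order. The fitted log2 fold changes were 0.26 (SE 0.107) for Prosalpha4, -0.24 (SE 0.0982) for Prosalpha4T1 and -0.19 (SE 0.105) for Prosalpha4T2. They were 0.17, -0.17 and -0.07 without control replicate 3.

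Prosalpha6 (FBgn0250843) had 257, 238 and 151 TPM in control and 299, 291 and 275 TPM upon Lam-KD. Its copy Prosalpha6T (FBgn0032492) had 217, 219.9 and 235 TPM in control and 196, 192 and 207 TPM upon Lam-KD. Neither gene's groups overlapped, with Prosalpha6 higher and Prosalpha6T lower upon Lam-KD. The order of the pair differed between control libraries, because Prosalpha6 exceeded Prosalpha6T in control replicates 1 and 2 and was below it in control replicate 3. Upon Lam-KD Prosalpha6 was the higher gene in each library. Log2 fold changes were 0.35 (SE 0.127, adjusted *P* = 0.0837) for Prosalpha6 and -0.26 (SE 0.103, adjusted *P* = 0.102) for Prosalpha6T. They were 0.20 and -0.15 without control replicate 3.

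Prosalpha1 (FBgn0263121) and Prosalpha1R (FBgn0050382) are near-identical copies, so their split is uncertain. Both had expected reads that were not whole numbers in all 6 libraries, which arises where *Salmon* divides reads between transcripts. Prosalpha1 had 72.8, 124 and 90.1 TPM in control and 331, 104 and 146 TPM upon Lam-KD. Prosalpha1R had 913, 897 and 841 TPM in control and 922, 1179 and 1103 TPM upon Lam-KD. Lam-KD replicate 1 thus held the highest Prosalpha1 and the lowest Prosalpha1R value of its group. The log2 fold change of Prosalpha1, 0.97 (SE 0.348, adjusted *P* = 0.0817), was the highest of all members but rested on this library, and it was 0.33 (adjusted *P* = 0.336) without it, against adjusted *P* of 0.0329 to 0.336 over all settings. The sum of both copies avoids the split. It was 986, 1020.2 and 931 TPM in control and 1253, 1283 and 1249.7 TPM upon Lam-KD, with no overlap of the groups.

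In the beta ring, paralogs exist for the trypsin-like protease subunit Prosbeta2, for the chymotrypsin-like protease subunit Prosbeta5 and for Prosbeta4, which has no protease site. Prosbeta2 (FBgn0023174) had 267, 268 and 172 TPM in control and 320.2, 331 and 290.1 TPM upon Lam-KD. These groups did not overlap, with a log2 fold change of 0.34 (SE 0.114, adjusted *P* = 0.0688). Prosbeta2R1 (FBgn0029812) had 97.3, 105 and 101 TPM in control and 101, 104 and 97.4 TPM upon Lam-KD. Prosbeta2R2 (FBgn0037296) had 186, 208 and 193 TPM in control and 189, 202 and 192 TPM upon Lam-KD. The groups of both paralogs overlapped almost wholly, each with a mean TPM ratio of 0.994 and a log2 fold change of -0.09 (SE 0.0903 and 0.0846, adjusted *P* = 0.491 and 0.444). With control replicate 3 left out, the log2 fold change was 0.22 for Prosbeta2, -0.02 for Prosbeta2R1 and -0.03 for Prosbeta2R2.

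Prosbeta4 (FBgn0032596) had 297, 285 and 197 TPM in control and 339, 344 and 338 TPM upon Lam-KD. Prosbeta4R1 (FBgn0031442) had 228, 237 and 293 TPM in control and 214, 201 and 229.8 TPM upon Lam-KD. Prosbeta4R2 (FBgn0031443) had 396, 378 and 501 TPM in control and 340.0, 319 and 368 TPM upon Lam-KD. Control replicate 3 had the lowest Prosbeta4 and the highest values of both paralogs, and the groups were apart for Prosbeta4 and Prosbeta4R2 but overlapped for Prosbeta4R1. The log2 fold change of Prosbeta4 was 0.31 (SE 0.107, adjusted *P* = 0.0727). Prosbeta4R2 had the lowest log2 fold change of all members, -0.47 (SE 0.142, adjusted *P* = 0.0531), and Prosbeta4R1 had -0.34 (SE 0.140, adjusted *P* = 0.115). After leaving out control replicate 3, the log2 fold change was 0.20 for Prosbeta4, -0.26 for Prosbeta4R2 and -0.14 for Prosbeta4R1. In 2 of the 6 libraries the reads of Prosbeta4R2 were not whole numbers.

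The paralogs of Prosbeta5 differed from each other. Prosbeta5 (FBgn0029134) had 151, 171 and 116 TPM in control and 197, 190.3 and 176 TPM upon Lam-KD. Prosbeta5R1 (FBgn0034842) had 165, 198 and 215 TPM in control and 155, 151 and 168 TPM upon Lam-KD. Prosbeta5R2 (FBgn0051742) had 235, 221 and 245 TPM in control and 268, 265 and 288 TPM upon Lam-KD. Groups were apart and higher upon Lam-KD for Prosbeta5 and Prosbeta5R2, and overlapped for Prosbeta5R1. Log2 fold changes were 0.32 (SE 0.0963, adjusted *P* = 0.0531) for Prosbeta5, -0.37 (SE 0.130, adjusted *P* = 0.0779) for Prosbeta5R1 and 0.14 (SE 0.103, adjusted *P* = 0.343) for Prosbeta5R2. They were 0.24, -0.20 and 0.25 without control replicate 3.

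Rpt4 was the standard subunit with the lowest adjusted *P*. This X-linked ATPase gene (FBgn0028685) had 68.1, 66.8 and 45.7 TPM in control and 84.0, 97.7 and 80.3 TPM upon Lam-KD. Its autosomal paralog Rpt4R (FBgn0036224) had 191, 188 and 126 TPM in control and 199, 218 and 198 TPM upon Lam-KD. Both genes were higher upon Lam-KD in all 3 libraries than in any control, and both were lowest in control replicate 3. The log2 fold change was 0.46 (SE 0.111, adjusted *P* = 0.0243) for Rpt4, with a ratio of mean TPM of 1.45, just under the 1.5-fold threshold, and 0.21 (SE 0.106, adjusted *P* = 0.181) for Rpt4R. These fold changes were 0.35 and 0.10 without control replicate 3. Leaving out control replicate 1 or 2 brought Rpt4 past both thresholds. Its adjusted *P* stayed below 0.05 when any 1 of the control replicates was left out, and it was between 0.0593 and 0.130 when 1 Lam-KD replicate was left out.

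The other X-linked ATPase genes had smaller differences. Rpt3 (FBgn0028686) had 35.6, 28.3 and 22.8 TPM in control and 37.3, 36.5 and 35.7 TPM upon Lam-KD. Rpt3R (FBgn0037742) had 182, 201 and 136 TPM in control and 212, 225 and 197 TPM upon Lam-KD. The Rpt3 groups were apart by less than 1 TPM, from 35.6 TPM in the highest control to 35.7 TPM in the lowest Lam-KD library, and those of Rpt3R overlapped. Rpt6 (FBgn0020369) had 121, 126 and 91.6 TPM in control and 122, 128 and 125 TPM upon Lam-KD. Rpt6R (FBgn0039788) had 257, 282 and 236 TPM in control and 268, 274 and 254 TPM upon Lam-KD. The groups overlapped for both. Log2 fold changes were 0.23 (SE 0.128) for Rpt3, 0.22 (SE 0.0950) for Rpt3R, 0.07 (SE 0.0876) for Rpt6 and -0.04 (SE 0.0771) for Rpt6R, with adjusted *P* between 0.133 and 0.712. They were 0.14, 0.13, 0.00095 and -0.04 without control replicate 3.

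Of the non-ATPase subunits, Rpn12 of the lid and the ubiquitin receptor Rpn13 have paralogs. Rpn12 (FBgn0028693) had 62.7, 63.7 and 52.7 TPM in control and 86.8, 86.1 and 67.7 TPM upon Lam-KD. Rpn12R (FBgn0036465) had 354, 356 and 367 TPM in control and 335, 325 and 328 TPM upon Lam-KD. Both genes' groups were apart, Rpn12 being higher (log2 fold change 0.33, SE 0.113, adjusted *P* = 0.0715) and Rpn12R lower (-0.20, SE 0.0895, adjusted *P* = 0.142) upon Lam-KD. Rpn13 (FBgn0033886) had 193, 214 and 176 TPM in control and 221, 222 and 204 TPM upon Lam-KD. The X-linked Rpn13R (FBgn0029745) had 77.6, 84.9 and 84.1 TPM in control and 71.4, 80.2 and 78.0 TPM upon Lam-KD. For Rpn13 and Rpn13R the groups overlapped, with log2 fold changes of 0.06 (SE 0.0765, adjusted *P* = 0.604) and -0.19 (SE 0.103, adjusted *P* = 0.216). From the other 5 libraries, without control replicate 3, the log2 fold change was 0.31 for Rpn12, -0.12 for Rpn12R, 0.06 for Rpn13 and -0.10 for Rpn13R.

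**Figure D4:**
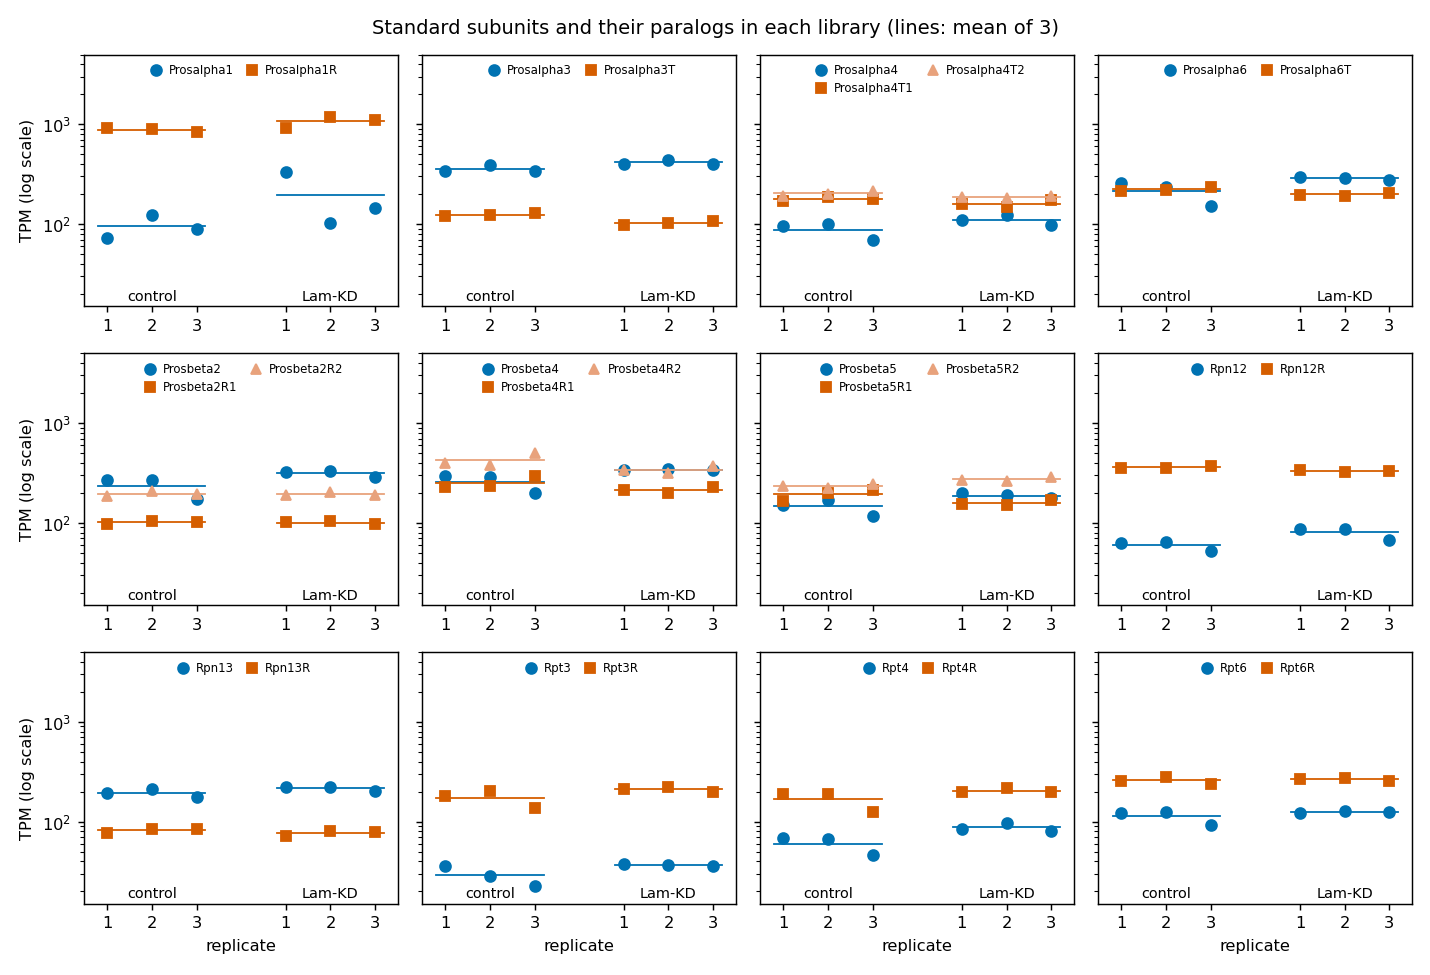
TPM (y axis, log scale) of the 12 subunits with paralogs in each of the 3 control and 3 Lam-KD libraries, with the standard gene as blue circles, paralogs as orange symbols and the mean of 3 as a line. In control replicate 3 most blue circles are low (Prosalpha6 151, Prosbeta2 172, Prosbeta4 197 TPM) while most orange symbols are not, and Rpt3R (136 TPM) and Rpt4R (126 TPM) are low with their standard genes.

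The 20 standard subunits without a paralog had log2 fold changes from -0.03 to 0.22, and 0 of them had an adjusted *P* below 0.05. The lowest 3 were Prosbeta7, Rpt1 and Prosbeta1. Prosbeta7 (FBgn0250746), a beta ring subunit without a protease site, had 449, 471 and 407 TPM in control and 461, 483 and 434 TPM upon Lam-KD. The ATPase Rpt1 (FBgn0028687) had 177, 185 and 149 TPM in control and 182, 180.3 and 173 TPM upon Lam-KD. The groups overlapped for both. Prosbeta1 (FBgn0010590), the caspase-like protease subunit, had 443, 456 and 446 TPM in control and 486, 478 and 481 TPM upon Lam-KD, groups that were apart in TPM but overlapped in TMM-scaled CPM, with a log2 fold change of 0.01 (SE 0.0825, adjusted *P* = 0.928). Leaving control replicate 3 out, the log2 fold change was -0.02 for Prosbeta7, -0.04 for Rpt1 and 0.07 for Prosbeta1.

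At the upper end of this class stood Rpn1, a scaffold of the regulatory particle that binds ubiquitin and shuttle proteins (0.22, SE 0.0921), Rpn8, the partner of the deubiquitinase Rpn11 (0.22, SE 0.0948), and the lid subunit Rpn5 (0.21, SE 0.0979), with adjusted *P* of 0.116, 0.132 and 0.148. Rpn11 itself, which removes ubiquitin chains, had 0.15 (SE 0.0823) and the ubiquitin receptor Rpn10 had 0.03 (SE 0.0784). The scaffold Rpn2 and the lid subunits Rpn3, Rpn6, Rpn7 and Rpn9 lay between 0.04 for Rpn6 and 0.18 for Rpn9. The ATPases Rpt2 and Rpt5 had 0.11 (SE 0.0811) and 0.15 (SE 0.0809). In the core, the alpha ring genes Prosalpha2, Prosalpha5 and Prosalpha7 had 0.17, 0.08 and 0.02, and the beta ring genes Prosbeta3 and Prosbeta6 had 0.09 and 0.16. Reads of Rpt2, Rpt6 and Rpn9 were not whole numbers in all 6 libraries, and those of Rpn7 in 1. Without control replicate 3, the values that moved by over 1.5 times were 0.12 for Rpn5, 0.14 for Rpn8, 0.08 for Rpn3 and Rpn6, 0.07 for Rpn7, 0.09 for Rpt5 and 0.07 for Prosalpha7.

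The balance between paralogs and standard genes can be read within each library, where no scaling between libraries enters. Summed TPM of standard subunits was 7466, 7722 and 6239 in control and 8529, 8497 and 8071 upon Lam-KD. Summed TPM of paralogs was 3981, 4086 and 4097 in control and 3915, 4170.3 and 4182 upon Lam-KD. The groups were apart for the standard sum and overlapped for the paralog sum. Paralogs made 34.8%, 34.6% and 39.6% of member TPM in control and 31.5%, 32.9% and 34.1% upon Lam-KD, which gives means of 36.3% ± 2.86 and 32.8% ± 1.34 (SD, n = 3 each). Without control replicate 3 the control mean was 34.7%. The lowest control (34.6%) was just above the highest Lam-KD library (34.1%), and control replicate 3 lay far above the other libraries. Leaving out Prosalpha1 and Prosalpha1R, a choice made after the values were seen, gave 31.2% ± 2.99 and 27.001% ± 0.881. An exact permutation test of 3 against 3 libraries cannot give a two-sided *P* below 0.1, so none is given.

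By subunit, the mean paralog share was lower upon Lam-KD in 12 of 12 subunits. It was 72.1% ± 6.98 in control and 62.1% ± 1.86 upon Lam-KD for Prosbeta4, and 51.6% ± 8.20 and 40.8% ± 1.85 for Prosalpha6 (SD, n = 3 each). Prosalpha3 had 26.0% ± 2.10 and 19.9% ± 1.02, and Rpn12 had 85.7% ± 1.48 and 80.5% ± 2.11. For Rpt4 the share was 73.7%, 73.8% and 73.4% in control and 70.3%, 69.0% and 71.1% upon Lam-KD, the smallest spread of all 12 subunits in control. Control and Lam-KD libraries did not overlap in these 5 subunits nor in Prosalpha4, Prosbeta2 and Rpn13. They overlapped in Prosalpha1, Prosbeta5, Rpt3 and Rpt6. How often such shares lie apart for other genes was not computed. TPM of single genes lay wholly higher upon Lam-KD in 21.5% and wholly lower in 15.6% of all genes tested. The change of Rpt3 was the smallest, from 85.6% ± 2.04 to 85.2% ± 0.718.

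**Figure D5:**
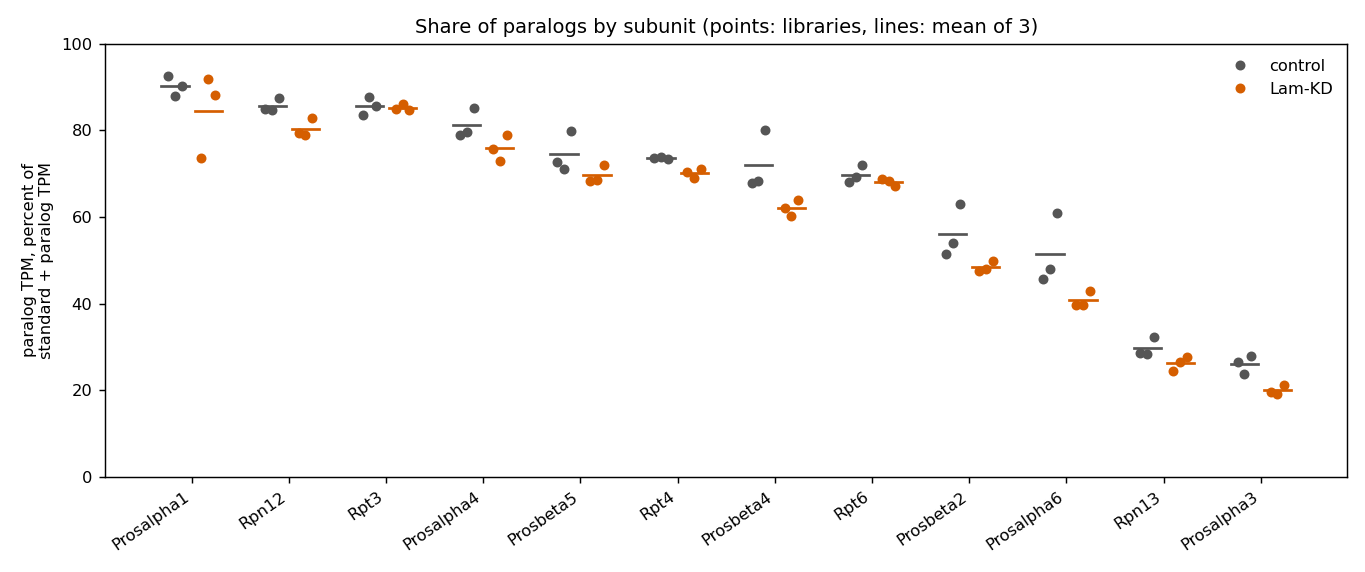
Paralog TPM as percent of the summed TPM of standard gene and paralogs (y axis, percent) for the 12 subunits that have paralogs, with 1 point per library and a line for the mean of 3, control in grey and Lam-KD in orange. The Lam-KD mean is below the control mean in each subunit, and the control point that stands above the rest in Prosalpha6 (60.9%), Prosbeta2 (63.03%) and Prosbeta4 (80.1%) is replicate 3.

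Taken pair by pair, the mean log2 ratio of paralog to standard TPM (pseudocount 0.5 TPM) was lower upon Lam-KD in 16 of 16 pairs. The difference was -0.71 for Prosbeta4R2, -0.66 for Prosbeta5R1, -0.64 for Prosbeta4R1 and -0.63 for Prosalpha6T, and it was -0.05 for Rpt3R and -0.12 for Rpt6R. Libraries overlapped for Prosalpha1R, Prosbeta5R2, Rpt3R and Rpt6R and were apart for the other pairs. Pairs that share a standard gene are not independent of each other. These ratios come from the same TPM values as the shares by subunit, so they add no separate evidence. How often such ratios are lower or lie apart for other pairs of genes was not computed. Without control replicate 3 the ratio was lower in 15 of 16 pairs, the exception being Prosbeta5R2 (0.04), and the same 4 pairs overlapped. The differences were then smaller for most, as -0.40 for Prosbeta4R2 and -0.36 for Prosalpha6T, while Rpt4R had -0.25 against -0.24 with all controls.

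Markers of other cell types were examined beside this balance. Of 7 SpG markers, 6 were found, with a summed level of 121 to 152 TPM in control and 152 to 177 TPM upon Lam-KD. Lam-KD was higher by range, but only from 151.9 TPM in the highest control to 152.4 TPM in the lowest Lam-KD library. Much of the sum was stil, with means of 83.1 TPM in control and 98.4 TPM upon Lam-KD. Of the 6 markers, 0 had an adjusted *P* below 0.05. The 6 markers of somatic cyst cells summed to 40.7 to 50.9 TPM in control and 50.7 to 53.9 TPM upon Lam-KD, and 3 hub markers to 8.47 to 8.92 and 9.83 to 10.7 TPM. Control replicate 3 had the lowest sum of the SpC, SpG and cyst cell markers. Single SpC markers did not all follow the sum. In control replicates 1, 2 and 3, aly had 51.8, 56.1 and 33.3 TPM, while dj had 1184, 1122 and 1290 TPM. The 6 fat body markers were abundant and overlapped between groups, at 5917 to 8852 TPM in control and 4732 to 7587 TPM upon Lam-KD. The 5 muscle markers summed to 130.1 to 156 and 118 to 125 TPM, nearly all from Act87E, with Tm2 under 1 TPM in each library, and 3 haemocyte markers summed to 6.86 to 15.8 and 7.47 to 10.4 TPM. By the rule for called genes, the cyst cell marker tj was higher, and the fat body marker Lsp1gamma and the muscle marker Mhc were lower. Of all genes tested, 3.19% were called higher and 3.22% lower. By adjusted *P* alone, the SpC markers sa and mia were also higher and the cyst cell marker so was also lower. That measure gave 5.31% of all genes higher and 7.34% lower. Other SpC markers had log2 fold changes on both sides of 0. Among them were Rbp4 (0.41) and comr (0.29) above it, and bol (-0.27) and fzo (-0.22) below it. The median of the SpC list was 0.05. The largest part of the SpC sum was dj, with means of 1198 TPM in control and 1116 TPM upon Lam-KD. The part of these cell types in the differences between standard subunits and paralogs was not tested.

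For 5 members on chromosome arm 2L, the position of the transcription start site (TSS) relative to lamina-associated domains (LADs) was read from the LAD lists, which come from merged Lam-DamID replicates on dm3. The SpG list came from testes of adult homozygous *bam* mutants, with the *nos-Cre* line. The SpC list came from larval testes without this mutation, with the *bam-Gal4-VP16* driver. Stage, genotype, age and driver line thus differ together between the lists, and their effects cannot be told apart. The start sites of the neighbouring paralogs Prosbeta4R1 and Prosbeta4R2 lay in the same LAD, of 25.2 kb in SpG and 20.7 kb in SpCs. That of Prosalpha6T lay in a LAD of 5.1 kb in SpG and 6.9 kb in SpCs. The standard gene Prosalpha6 had its start site in a LAD of 1.5 kb in SpG. In SpCs it lay outside LADs, 64.9 kb from the nearest LAD. Rpn11 lay in inter-LADs at both stages, 8.11 kb and 22.5 kb from the nearest LAD. With no replicate of the LAD lists, no test was made, and start sites of the other members were not used here. The paper holds that true LADs are likely much longer than called, because bins without Dam reads were left as gaps. For genes activated in later SpCs, it also proposes that Dam-Lam methylation from early SpCs may persist. Such genes could then be scored in LADs after leaving the lamina. Whether this applies to these paralogs was not tested.

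Genes that assemble, regulate or supply the proteasome were followed as fixed lists. Of 12 assembly and regulation genes, 0 were called in either direction, and 1 was higher by adjusted *P* alone, against 3.19% of all genes called higher, 3.22% called lower and 5.31% higher by adjusted *P* alone. This was Pomp, the chaperone that matures the core, at 335 ± 7.15 TPM in control and 482 ± 4.83 TPM upon Lam-KD (SD, n = 3), with a log2 fold change of 0.44 (SE 0.0849, adjusted *P* = 0.00834) and a ratio of mean TPM of 1.44. Next to it stood CG8858, the fly counterpart of the yeast proteasome adaptor Ecm29 (0.44, adjusted *P* = 0.0513). The median of this list was 0.13, against 0.01 for all genes tested. Of 7 ubiquitin supply and extraction genes found, 0 had an adjusted *P* below 0.05, with a median of 0.10.

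Another list held genes of and around the cullin-3 ubiquitin ligase of the testis, which acts in sperm individualization. They were Cul3, klhl10, gudu, soti, Duba and Roc1b. All 6 genes of this list had a log2 fold change below 0, with a median of -0.31. Below 0 were 48.4% of all genes tested. Of the 6 genes, 0 were called and 1 was lower by adjusted *P* alone, against 7.34% of all genes. It was the substrate adaptor klhl10 (-0.45, adjusted *P* = 0.0451). Roc1b, the RING subunit, had -0.49 with an adjusted *P* of 0.0777. Summed TPM of the list was 1555, 1588 and 1842 in control and 1435, 1458 and 1480.1 upon Lam-KD, apart between the groups and highest in control replicate 3, as were several proteasome paralogs.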

How the data were processed

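RNA-seq libraries of 3 control and 3 Lam-KD samples were used, grouped by the genotype in the labels. The authors deposited expected counts per gene, estimated by *Salmon* on BDGP5.78 without normalization, and beside them TPM, which the authors made with *Salmon* per effective length. Lam-DamID lists of LADs on dm3 were deposited as positions called from merged replicates. Only they and 5 start sites of the study's gene table were used from that experiment.

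Expected counts were rounded and tested in R 4.3.3 with edgeR 4.0.16 (TMM, quasi-likelihood test, Benjamini-Hochberg adjustment) on the 10318 genes that had 10 or more expected reads in 3 or more libraries, without *Lam* and *LamC*. DESeq2 1.42.0 was an alternative. Standard errors were derived from the *F* statistic (absolute log2 fold change over root *F*). Tests were checked on simulated data. Paralog shares and log2 ratios (pseudocount 0.5 TPM) came from TPM. Python 3.11.15, numpy 2.4.6, pandas 2.3.3 and matplotlib 3.10.9 were used. Symbols came from a table of gene names, which matched 13484 of 13776 identifiers. Chromosomes, and synonyms for listed names, came from the Release 6 RefSeq gene table by symbol, and its coordinates were not used. TER94 and vas found no match.

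Totals of 5651960 to 7437111 expected reads set the precision. Values per library are given for all paralogs, their standard genes and the 3 highest and 3 lowest standard subunits by log2 fold change, and other members by fold change or range. Members, lists and this rule were chosen with earlier results of these data known. *P* values measure the spread between biological replicates of pooled testes.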

Additional observations from a re-analysis of the deposited data

How the results depend on the processing

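With 1 replicate left out at a time, the median log2 fold change ranged from -0.236 to -0.0840 for paralogs, from 0.202 to 0.376 for standard subunits with a paralog and from 0.0872 to 0.157 for those without, in the latter 2 classes lowest without control replicate 3. Called genes ranged from 145 to 495 higher and from 183 to 325 lower, and standard subunits called higher from 0 to 1 (Rpt4 without control replicate 1 or 2, and Prosalpha1 without Lam-KD replicate 2). Whether replicate numbers pair the libraries was not settled. Correlations of deviations were 0.06, 0.07 and 0.18 for numbers 1, 2 and 3. Control replicates 2 and 3 correlated best with the Lam-KD library of the same number, and control replicate 1 with Lam-KD replicate 2 (0.11). With the replicate block, 1 standard subunit (Prosalpha1) was called higher, and by adjusted *P* alone 9 standard subunits were higher, while 1 paralog was higher and 6 were lower, against 1236 genes higher and 1638 lower of all 10318 tested under the block, and 548 and 757 without it. Unadjusted *P* also gave 1 standard subunit called higher. Without the fold threshold 548 genes were higher and 757 lower, among them 1 standard subunit higher and 1 paralog lower. By the log2 ratio of mean TPM, with a median of 0.0976 over all genes tested, the medians were 0.233 for standard subunits, 0.221 for those without a paralog and -0.105 for paralogs. The paralog share by expected reads was 31.5% in control and 28.6% upon Lam-KD, and without Prosalpha1 and Prosalpha1R, added after the data were seen, 31.2% and 27.001%. The median log2 ratio of paralog to standard gene was 0.71 in control and 0.24 upon Lam-KD, by expected reads, which are not divided by length, 0.554 and 0.0200, and in control 0.458 without control replicate 3. Signs reversed for some fold changes near 0. Prosalpha7 ranged from -0.0331 to 0.0672 with a replicate left out, Prosbeta1 from -0.0283 to 0.0695 and Rpt1 from -0.0367 to 0.00630. Prosbeta1 was at -4.00e-05 with DESeq2 and at -0.000148 with median-of-ratios size factors, and Rpt1 was at 0.00236 without the filter. By the ratio of mean TPM Prosbeta7, Rpt1 and Rpt6R were at 0.0538, 0.0672 and 0.0388, below the median of all genes on that scale. The cause of the other changes was not tested.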
